A study of Mus musculus with 4 samples.

Results

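The genes of the translation initiation and elongation factors were examined in RNA recovered with the RNA-binding protein IGF2BP2 from mouse bone-marrow-derived macrophages. They were taken as every protein-coding gene of GENCODE release M21 whose symbol begins with Eif or Eef, a rule on names that uses no measured value. It found 69 genes, 55 with an Eif and 14 with an Eef symbol, among 21951 protein-coding genes. Their peaks were those that the authors' lists assign to the gene identifier, with peaks marked antisense left out. This gave 103 peaks holding 1319 sequencing tags in replicate 1 and 113 peaks holding 2106 tags in replicate 2.

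The series has 4 samples, all from BMDMs (macrophages grown in culture from bone marrow cells): 2 IGF2BP2 immunoprecipitates and 2 input libraries. A peak list was analysed for each immunoprecipitate, and the inputs were not analysed here. The labels give no genotype, strain, age or treatment. They disagree about the antibody, since the characteristics name an antibody to IGF2BP2 and the protocol a monoclonal antibody to the Flag tag, and they do not say whether the cells carried a tagged protein. Replicate numbers come from the titles, which do not tell whether the cultures or animals were separate. The lists carry no input value, so binding of an RNA and its abundance in the cells cannot be told apart. A gene absent from a list has no value here, since the lists hold only peaks above the caller's cut, the lowest with 3 tags. The depth of the libraries is unknown, so tags of the 2 libraries are set side by side and not compared by a test.

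Of 9 macrophage marker genes, 5 had a sense peak in both libraries (Adgre1, Csf1r, Itgam, Mertk and Mrc1), with 2545 and 4374 tags over the list. Cd14 and Lyz2 had none in either. A sense peak in both libraries was present for 17.0% of all protein-coding genes. The T cell, B cell, neutrophil and stromal lists had no gene with a peak in both libraries. Their summed tags in replicate 1 and replicate 2 were 3 and 0 for T cells (all on Cd3e), 3 and 0 for B cells (Pax5), 0 and 10 for neutrophils (Mpo), and 9 and 0 for stroma (Col1a2). The other genes of these 4 lists, Cd3g, Ly6g and Col1a1 among them, had no sense peak.

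Translation begins when the cap-binding complex eIF4F recruits the small ribosomal subunit, which carries eIF3, eIF1, eIF1A and the initiator tRNA bound to eIF2, and the complex scans to the start codon. eIF5 and eIF5B then let the subunits join, eEF1 brings each aminoacyl-tRNA to the ribosome, and eEF2 moves the ribosome along by a codon. IGF2BP2 is known for binding mRNAs, in part at adenosines that carry the methyl mark m6A, and for prolonging their life or aiding their translation. GGAC is the core most often given for such sites, and DRACH (D is A, G or T; R is A or G; H is A, C or T) is the wider consensus of m6A.

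The sequences that the results turn on are printed here from the GENCODE M21 transcripts (GRCm38), 5′ to 3′ on the transcribed strand. The first set are coding exons that a peak covered exactly, from the first to the last base of the exon, in both libraries. They are shown because 6 of the 51 overlapping pairs of peaks had the same bounds in both lists, and each of the 6 was a whole exon of Eif4b, Eif4g1 or Eif4g2. The share of such pairs was 11.8%, near the 11.1% of the 5064 pairs over all protein-coding genes. Capitals mark GGAC.
Eif4b exon 13: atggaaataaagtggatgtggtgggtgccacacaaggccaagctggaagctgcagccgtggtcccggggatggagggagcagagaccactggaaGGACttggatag
Eif4b exon 14: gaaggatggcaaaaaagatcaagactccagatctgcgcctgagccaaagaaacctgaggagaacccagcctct
Eif4g1 exon 22: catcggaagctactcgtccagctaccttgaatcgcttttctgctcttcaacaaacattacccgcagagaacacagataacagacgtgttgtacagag
Eif4g1 exon 24: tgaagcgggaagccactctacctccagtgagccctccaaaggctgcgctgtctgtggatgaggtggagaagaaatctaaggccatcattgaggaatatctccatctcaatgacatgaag
Eif4g2 exon 4: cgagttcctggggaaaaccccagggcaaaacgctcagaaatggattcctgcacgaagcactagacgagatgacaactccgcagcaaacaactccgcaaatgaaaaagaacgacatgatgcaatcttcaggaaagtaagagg
Eif4g2 exon 14: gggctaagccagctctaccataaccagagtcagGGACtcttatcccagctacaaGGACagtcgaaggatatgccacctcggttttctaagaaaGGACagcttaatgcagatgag
Eif4b exons 13 and 14 lie at chr15:102094672-102094777 and chr15:102094977-102095049 (plus strand). Eif4g1 exons 22 and 24 lie at chr16:20685859-20685955 and chr16:20686513-20686631 (plus strand). Eif4g2 exons 4 and 14 lie at chr7:111080182-111080322 and chr7:111076280-111076393 (minus strand). Eif4g2 exon 14 held 3 GGAC, Eif4b exon 13 held 1, and the other 4 exons held none. All 6 held at least 1 DRACH.

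The second set are the exons under the overlapping pairs of coding peaks with the most tags in their weaker library, among pairs where the peak equalled an exon in 1 library. Eif4g1 exon 23 is at chr16:20686151-20686377 (plus strand; 50 and 58 tags) and Eif3a exon 20 at chr19:60764032-60764233 (minus strand; 49 and 53 tags). Each held 3 GGAC, again in capitals.
Eif4g1 exon 23: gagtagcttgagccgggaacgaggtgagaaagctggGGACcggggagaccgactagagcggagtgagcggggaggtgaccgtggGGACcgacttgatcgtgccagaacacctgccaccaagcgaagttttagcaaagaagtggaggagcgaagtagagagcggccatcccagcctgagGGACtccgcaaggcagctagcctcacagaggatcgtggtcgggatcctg
Eif3a exon 20: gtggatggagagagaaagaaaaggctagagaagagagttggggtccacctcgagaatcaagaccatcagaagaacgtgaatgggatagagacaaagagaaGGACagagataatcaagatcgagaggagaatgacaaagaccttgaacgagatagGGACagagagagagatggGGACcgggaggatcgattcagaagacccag

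The third set are small nucleolar RNA (snoRNA) genes, which guide chemical marks on other RNAs and lie in introns of their host genes. A sense peak covered bases of 4 of them, at chr10:81178950-81179013 in Eef2 (plus strand), chr16:23111617-23111755 in Eif4a2 (plus strand), chr7:111076060-111076227 in Eif4g2 (minus strand) and chr12:111540941-111541067 in Eif5 (plus strand). Capitals mark the bases within a peak of either library.
Snord37: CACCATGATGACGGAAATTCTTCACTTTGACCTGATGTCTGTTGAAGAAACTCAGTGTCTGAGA
Gm24616: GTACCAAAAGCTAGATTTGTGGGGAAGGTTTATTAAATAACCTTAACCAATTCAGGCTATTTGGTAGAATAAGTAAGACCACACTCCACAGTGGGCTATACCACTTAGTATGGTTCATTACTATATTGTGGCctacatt
Gm23262: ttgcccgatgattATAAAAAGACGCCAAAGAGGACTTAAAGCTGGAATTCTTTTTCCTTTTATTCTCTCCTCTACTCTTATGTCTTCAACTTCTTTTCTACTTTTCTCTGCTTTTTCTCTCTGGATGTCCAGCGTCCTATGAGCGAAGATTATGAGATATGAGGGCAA
Snora28: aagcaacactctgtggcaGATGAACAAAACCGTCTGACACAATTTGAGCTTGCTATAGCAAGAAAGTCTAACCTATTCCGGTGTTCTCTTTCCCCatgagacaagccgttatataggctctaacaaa

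Members were found in the lists more often than protein-coding genes at large. A sense peak was present for 39 of 69 members in replicate 1 (56.5%, against 22.0% of all protein-coding genes) and for 36 in replicate 2 (52.2%, against 26.7%). In both libraries it was present for 29 members, 42.0% with an exact binomial 95% interval of 30.2 to 54.5, against 17.0%. For 21 members, 30.4% (19.9 to 42.7), a peak of one library overlapped a peak of the other by at least 1 base on the same strand, against 9.07%. The intervals cover counting error over genes only. No expression value was used, so these counts do not compare binding at equal abundance.

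Peaks were present in replicate 1 alone for 10 members, in replicate 2 alone for 7 and in neither for 23. Of the 46 members with a peak in either library, 63.0% had peaks in both, against 53.8% of such protein-coding genes. Of the 29 members in both, 72.4% had an overlapping peak, against 53.3%. Members made up 0.314% of protein-coding genes and held 0.806% and 0.716% of the tags in sense peaks of such genes. The median member peak had 9 and 17 tags, where all protein-coding peaks had 8 and 9.

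Tags were gathered in few members, and how far they are gathered over all protein-coding genes is not given here. The 6 members with most tags held 56.5% of the members' tags in replicate 1 (Eif4g1, Eif4b, Eif4h, Eif3a, Eef2 and Eif4g2) and 59.4% in replicate 2 (Eif3a, Eif4g1, Eif4g2, Eif4b, Eif4h and Eif3b). The 11 genes of eIF4F, relatives of its subunits and its helicase cofactors held 52.8% and 42.9%. Among these relatives Eif4g2 gave 69 and 204 tags. Ranked by the strongest peak, with ranks averaged over the libraries, the first 10 members were Eif3a, Eif4g1, Eef1a1, Eif4a1, Eif4h, Eif4b, Eif4g2, Eif3b, Eif5 and Eif4g3, and each of them had an overlapping peak. Members with a peak in both libraries had a median mRNA of 2945 nt and those with none 1942 nt. Over all protein-coding genes the medians were 3756 nt for those with a peak in both libraries and 2206 nt for those with none.

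**Figure D1:**
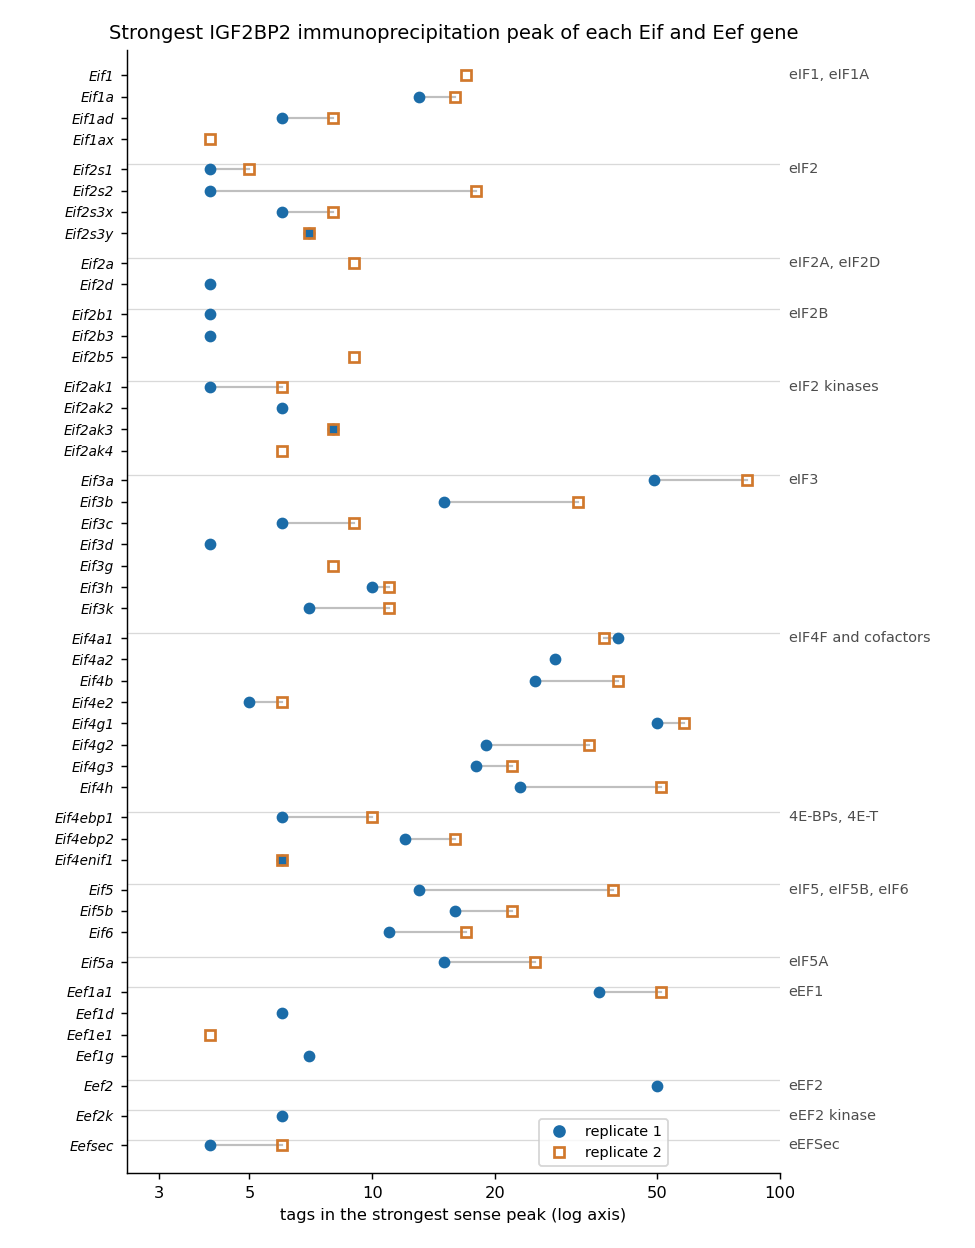
Tags in the strongest sense peak (log axis) of the 46 members with a peak, 1 row a gene, grouped by factor; filled circles are replicate 1 and open squares replicate 2, and a member with 1 symbol had a peak in that library alone. Eif3a (49 and 83 tags) and Eif4g1 (50 and 58) lie farthest right, and Eef2 has 50 tags in replicate 1 and no peak in replicate 2.

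Eif4g1 encodes eIF4G1, the scaffold of eIF4F that joins the cap-binding protein to the helicase and to eIF3. It had 12 peaks and 247 tags in replicate 1, and 9 peaks and 270 tags in replicate 2. In replicate 1 its tag total exceeded those of 98.1% of protein-coding genes that had peaks. Positions in exons 16, 17, 22, 23, 24 and 29 of 32 were found in both libraries. Exon 23 was the strongest in each, with 50 and 58 tags. The tags at the other shared exons were 23 and 21 (exon 16), 23 and 21 (exon 17), 13 and 27 (exon 22), 21 and 32 (exon 24) and 20 and 23 (exon 29). All 6 shared positions lay in the later part of the coding sequence, with summits from 2602 nt after the start codon onwards.

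The positions of Eif4g1 that were not shared differed between the libraries. Replicate 1 had peaks in the 5′ UTR (10 tags), at 2 places in exon 9 (22 and 17 tags) and in exons 10 (11 tags), 26 (14 tags) and 27 (23 tags). Replicate 2 had peaks in exon 25 (22 tags), exon 31 (23 tags) and at the last exon, where 43 tags spanned coding sequence and 3′ UTR. The replicate 2 list thus held no Eif4g1 peak before exon 16.

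Eif4g2 encodes a relative of eIF4G that lacks the cap-binding protein's docking site and serves translation that does not start at the cap. It had 4 peaks with 69 tags in replicate 1 and 10 peaks with 204 tags in replicate 2. Its shared positions were exon 4 (18 and 20 tags), exon 14 (16 and 19 tags) and the next intron, over the snoRNA gene Gm23262 (19 and 34 tags). The intron position was the strongest of the gene in both libraries. Of the 168 nt of Gm23262, 152 and 155 lay under the peaks, and both summits were inside it.

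The remaining replicate 1 peak of Eif4g2 was exon 12 (16 tags), a whole exon. The other 7 replicate 2 peaks were in exons 3 (16 tags), 10 (13 tags), 15 (19 tags), 16 (21 tags), 17 (20 tags) and 21 (22 tags) and at the end of the coding sequence in exon 22 (20 tags). The authors' label for that last peak was mostly 5′ UTR, while on the principal transcript it spanned the stop codon. Eif4g3, another eIF4G paralog, had 6 peaks in each library with 56 and 72 tags. Exons 12 (9 and 18 tags) and 14 (18 and 22 tags) were shared.

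The unshared Eif4g3 peaks of replicate 1 were in exons 13 (8 tags) and 22 (6 tags) and at 2 places in intron 2 (6 and 9 tags). Those of replicate 2 were in exons 8 (8 tags), 25 (10 tags) and 26 (7 tags) and in intron 3 (7 tags). None of these exceeded 10 tags, and the shared exons held the strongest peak of the gene in both libraries.

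The helicase Eif4a1, the subunit of eIF4F that unwinds the 5′ UTR, had a single long peak in each library over its first intron. It had 40 tags over 790 nt in replicate 1 and 37 tags over 507 nt in replicate 2, with summits 27 nt apart. Neither peak reached a snoRNA gene, although 3 of them lie in later introns of Eif4a1. Eif4a2, the paralog, had a peak in replicate 1 alone, with 28 tags across an exon and intron 9. It covered 132 of the 139 nt of the snoRNA gene Gm24616, and its summit was inside that gene. All 50-mers of its exonic part also occurred in the gene Gm2999, so reads of these genes cannot be told apart there.

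Eif4b encodes a cofactor that stimulates the helicase. It had 7 peaks with 131 tags and 8 peaks with 174 tags, and 6 positions were shared. These were exons 9 (19 and 20 tags), 12 (16 and 18 tags), 13 (21 and 23 tags) and 14 (14 and 18 tags), the end of the coding sequence in exon 15 (22 and 20 tags) and the 3′ UTR (25 and 40 tags). The 3′ UTR peaks were 815 and 762 nt long, with summits 1145 and 1111 nt past the stop codon. Replicate 1 also had exon 10 (14 tags), and replicate 2 exons 3 (14 tags) and 6 (21 tags). Summits of the shared positions lay within 34 nt of each other.

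Eif4h, which encodes another cofactor of the helicase, had 7 peaks with 121 tags and 5 peaks with 141 tags. All 5 of replicate 2 overlapped a replicate 1 peak. Its 3′ UTR held 3 peaks in replicate 1 (23, 16 and 14 tags) and 2 in replicate 2 (51 and 25 tags), so that long replicate 2 peaks met several replicate 1 peaks. Coding exon 5 had 19 and 29 tags and exon 4 had 21 and 23. An exon that the principal transcript skips, within its intron 4, had 18 and 13 tags, and the replicate 2 peak equalled an annotated exon of another transcript. Exon 3 had 10 tags in replicate 1 alone.

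Among the genes of the cap-binding proteins themselves, only Eif4e2 had a peak. Over all protein-coding genes 17.0% had a peak in both libraries, so absence from the lists was common. Eif4e, Eif4e3 and Eif4e1b had no peak in either library. Eif4e2, a cap-binding relative linked to repression, had 5 tags in intron 1 in replicate 1 and 6 tags in exon 2 in replicate 2. Of the 4E-binding genes, whose products keep eIF4E from eIF4G, Eif4ebp2 had a shared peak that began at the end of its coding sequence and ran into the 3′ UTR (12 and 16 tags, summits 190 and 62 nt past the stop codon). Eif4ebp1 had intron 1 peaks at different places (6 and 10 tags), the transporter Eif4enif1 had 6 tags in exon 5 and 6 tags in intron 9, and Eif4ebp3 had none. Eif4a3, the exon junction helicase, had none either.

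**Figure D2:**
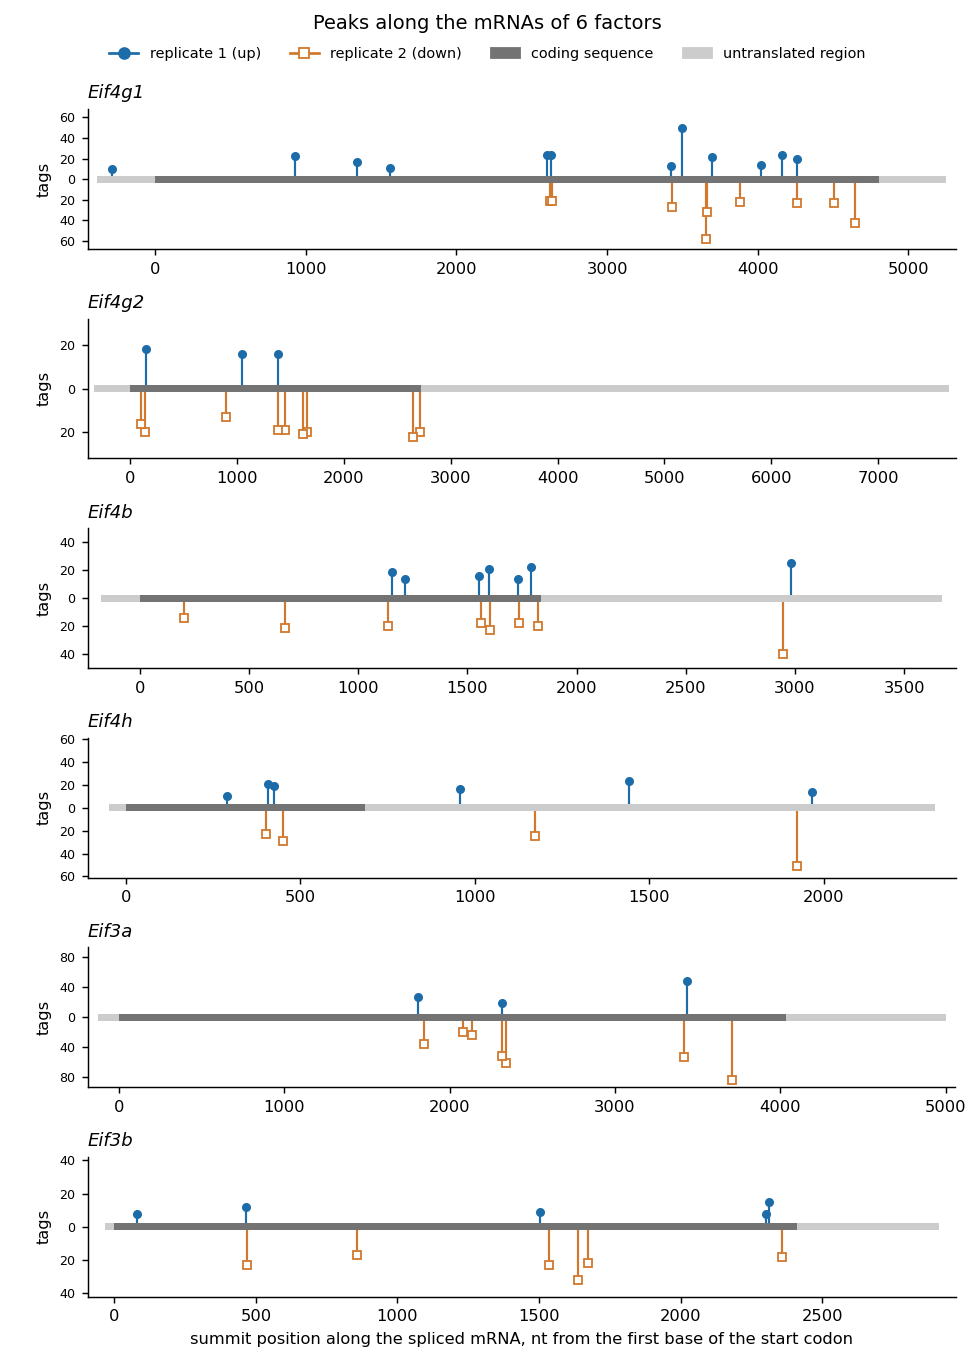
Exonic summits of the peaks of 6 members along the principal spliced mRNA (x axis, nt from the start codon). The dark bar is coding sequence and the light bars are untranslated regions. Stem height is the tags of the peak, replicate 1 upwards and replicate 2 downwards. Peaks that lie mostly in an intron are drawn where their summit is in an exon. Eif4g1 has its highest stem in exon 23 in both libraries (50 and 58 tags), and Eif4b and Eif4h have stems in the 3′ UTR in both.

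eIF3 is the largest initiation factor and holds the small subunit to the mRNA and eIF4F. Of its 14 genes, 5 had a peak in both libraries (Eif3a, Eif3b, Eif3c, Eif3h and Eif3k), with overlap for all but Eif3c. The shares over all protein-coding genes were 17.0% in both libraries and 9.07% with overlap. Eif3d had peaks in replicate 1 alone, Eif3g in replicate 2 alone, and Eif3e, Eif3f, Eif3i, Eif3j1, Eif3j2, Eif3l and Eif3m had none. The group held 201 and 544 tags, of which Eif3a gave 95 and 328 and Eif3b 52 and 135.

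Eif3a, the largest subunit, had 3 peaks in replicate 1, all shared, and 7 in replicate 2. The shared positions were exons 12 (27 and 35 tags), 15 (19 and 52 tags) and 20 (49 and 53 tags) of 22. Replicate 2 had 4 more, in exons 13 (20 tags), 14 (24 tags), 16 (61 tags) and 21 (83 tags), the last being the strongest peak of any member. In replicate 1 no peak was listed in exons 16 and 21, next to exons with 19 and 49 tags. All 10 peaks had their summit in coding sequence.

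Eif3b, a scaffold subunit, had 5 and 6 peaks. Shared were exon 2 (12 and 23 tags), exon 10 (9 and 23 tags) and the region of exons 17 and 18 near the stop codon, where replicate 1 peaks of 8 and 15 tags both met a replicate 2 peak of 18 tags. Exon 1 (8 tags) was found in replicate 1 alone, and exons 5 (17 tags), 11 (32 tags) and 12 (22 tags) in replicate 2 alone. In each overlapping pair the replicate 2 peak had more tags. At exons 17 and 18 the replicate 1 tags were split over separate peaks, so there the pairs compare parts with a whole.

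The smaller subunits had weaker peaks. Eif3h had 4 and 5 peaks, of which exon 4 (10 and 11 tags) and exon 3 (6 and 9 tags) were shared; the others were exon 5 (8 tags in replicate 2) and 4 intron 2 peaks of 5 or 6 tags that did not overlap. All 50-mers of the exon 3 peaks also occurred in the gene AC122253.2. Eif3k had exon 1 (6 and 9 tags) and exon 2 (7 and 11 tags) in both, and exon 7 (6 tags) in replicate 2. Its mRNA is only 774 nt long, so its summed tags per kb of mRNA, 16.8 and 33.6, stood near those of Eif3b at 17.7 and 45.8. Eif3c had 6 tags in intron 10 and 9 tags at exon 10.

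Among the initiator-tRNA factors, all 4 genes of eIF2 had peaks in both libraries, at 4 to 18 tags, against 17.0% of all protein-coding genes. Eif2s2, the beta subunit, shared its exon 1 and its exon 2 (4 tags each in replicate 1, 18 tags each in replicate 2), and both replicate 2 peaks ran on into the intron. Eif2s3x, the X-linked gamma subunit, shared a 3′ UTR position (6 and 6 tags) and had further 3′ UTR peaks of 4 tags in replicate 1 and 8 tags in replicate 2. Eif2s3y, its Y-linked copy, had peaks of 7 and 5 tags in exons 11 and 12 in replicate 1 and of 7 tags each in exons 8 and 9 in replicate 2. Eif2s1, the alpha subunit that the stress kinases phosphorylate, had 4 tags in exon 7 and 5 tags in intron 1. Of the alternative factors, Eif2a had 4 peaks and 29 tags in replicate 2 alone, and Eif2d 4 tags in replicate 1 alone.

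eIF2B, which reloads eIF2 with GTP, had no gene with a peak in both libraries, where 17.0% of all protein-coding genes had one. Eif2b1 (4 tags) and Eif2b3 (7 tags) had peaks in replicate 1, Eif2b5 (14 tags) in replicate 2, and Eif2b2 and Eif2b4 had none. Of the 4 kinases that act on eIF2 alpha, Eif2ak3 (PERK, the sensor of the endoplasmic reticulum) shared a position at exon 12 (4 and 8 tags). It had 4 more peaks in replicate 1, in intron 1 (4 tags) and exons 3 (6 tags), 4 (8 tags) and 5 (4 tags). Eif2ak1, the haem-regulated kinase, had 1 peak of 4 tags and 4 peaks of 4 to 6 tags at other places. Eif2ak2 (PKR, the sensor of double-stranded RNA) had 12 tags in its 3′ UTR in replicate 1, and Eif2ak4 (GCN2, the amino-acid sensor) 12 tags in replicate 2.

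Of the genes whose symbol begins with Eif1, Eif1a had a coding peak with 13 and 16 tags and summits 1 nt apart. Up to 24.9% of the 50-mers of this peak occurred in other genes. Eif1ad shared a peak in the 5′ UTR (6 and 8 tags) and had another there in replicate 1 (5 tags). Eif1, which guards start codon choice, had 17 tags in its 5′ UTR and 9 tags in exon 2 in replicate 2 alone, the latter in sequence shared in full with 4 other genes. Eif1ax had 4 tags in intron 5 in replicate 2, and Eif1b had none.

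The late initiation factors all had overlapping peaks, against 9.07% of all protein-coding genes. Eif5, which triggers GTP hydrolysis on eIF2, shared a long 5′ UTR and intron 2 position, with 13 tags over 558 nt and 38 tags over 1143 nt. Its other replicate 1 peak (8 tags) lay wholly over the snoRNA gene Snora28 in intron 6, covering 77 of its 127 nt. Its other replicate 2 peaks were in exons 7 (24 tags), 8 (39 tags), 11 (13 tags) and 12 (13 tags). Eif5b, the subunit-joining GTPase, shared exon 6 (7 and 15 tags). Replicate 1 added exons 5 (14 tags), 10 (16 tags) and 16 (6 tags), and replicate 2 exons 2 (7 tags), 7 (13 tags), 8 (19 tags) and 9 (22 tags).

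Peaks of Eif5b thus fell mostly in neighbouring exons of its coding sequence and at different ones in the 2 libraries. Eif6, which keeps the subunits apart until release, shared a 5′ UTR peak (11 and 17 tags), with exons 4 (11 tags) and 5 (8 tags) added in replicate 2. Eif5a, the factor that carries hypusine and aids peptide bond formation, had 15 and 9 tags near its 5′ end in replicate 1 and 25 and 23 tags in exons 5 and 6 in replicate 2, with no overlap. Eif5a2 had no peak.

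Among the elongation factors Eef1a1 alone had an overlapping peak in mRNA exons. It encodes eEF1A1, the GTPase that delivers aminoacyl-tRNA, and had 3 peaks with 62 tags and 4 peaks with 118 tags, all of them shared. A replicate 1 peak of 36 tags over exons 2 and 3 met 2 replicate 2 peaks, of 51 tags at exon 2 and 12 tags at exon 3. Exon 7 had 13 and 26 tags with the same summit, and the exon 1 and intron 1 position 13 and 29 tags, again with the same summit. Between 34.9% and 51.9% of the 50-mers of its coding peaks also occurred in other genes, and how the authors placed such reads is not given in the sources used here. Eef1a2 and Eef1b2 had no peak. Eef1d (6 tags) and Eef1g (7 tags) had a peak in replicate 1 and Eef1e1 (4 tags) in replicate 2. Of the 50-mers in the exonic part of the Eef1g peak, 73.2% also occurred in other genes.

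Eef2, the translocase, was the clearest case of disagreement between the lists. It had 2 peaks and 82 tags in replicate 1, more than 92.0% of the genes in that list, and no sense peak in replicate 2. The peaks were at exon 6 (32 tags, the whole exon) and at intron 4 and exon 5 (50 tags). The latter covered all 64 nt of Snord37, but its summit lay in exon 5. Eef2k, the kinase that inhibits eEF2, also had peaks in replicate 1 alone (14 tags over 3 peaks). Eefsec, which delivers selenocysteine, shared an intron 2 position (4 and 6 tags) and had intron 1 peaks of 4 tags each at 2 places in replicate 1 and of 6 tags at 1 place in replicate 2. The 5 methyltransferase genes of the elongation factors had no sense peak, where 22.0% (replicate 1) and 26.7% (replicate 2) of all protein-coding genes had one.

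Per kb of mRNA, summed tags over all peaks placed other members first. In replicate 1 Eif4h had 51.1 tags per kb, Eif4g1 43.8, Eef1a1 34.6, Eif4b 34.0 and Eef2 26.5. In replicate 2 Eef1a1 had 65.8, Eif3a 64.0, Eif4h 59.6, Eif4g1 47.9, Eif3b 45.8 and Eif4b 45.1. Eif4h, Eif4g1, Eef1a1 and Eif4b were thus high in both libraries by this measure, and Eif3a (18.5 in replicate 1), Eif3b (17.7 in replicate 1) and Eef2 in 1 of them.

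snoRNA genes lie in 9 of the 69 members (13.0%), against 1.27% of protein-coding genes. Of the 18 snoRNA genes within members, 4 lay under a sense peak in replicate 1 (22.2%) and 1 in replicate 2 (5.56%). Within all protein-coding genes the shares were 7.67% and 8.99% of 378. Only Gm23262 of Eif4g2 was covered in both libraries. Peaks wholly within introns numbered 18 in replicate 1 and 12 in replicate 2, with medians of 5 and 6 tags. Those with at least 10 tags were on Eif4a1 and Eif4g2 in replicate 1 and on Eif4ebp1 and Eif4g2 in replicate 2. Whether such reads come from snoRNAs, retained introns or unspliced RNA was not tested.

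**Figure D3:**
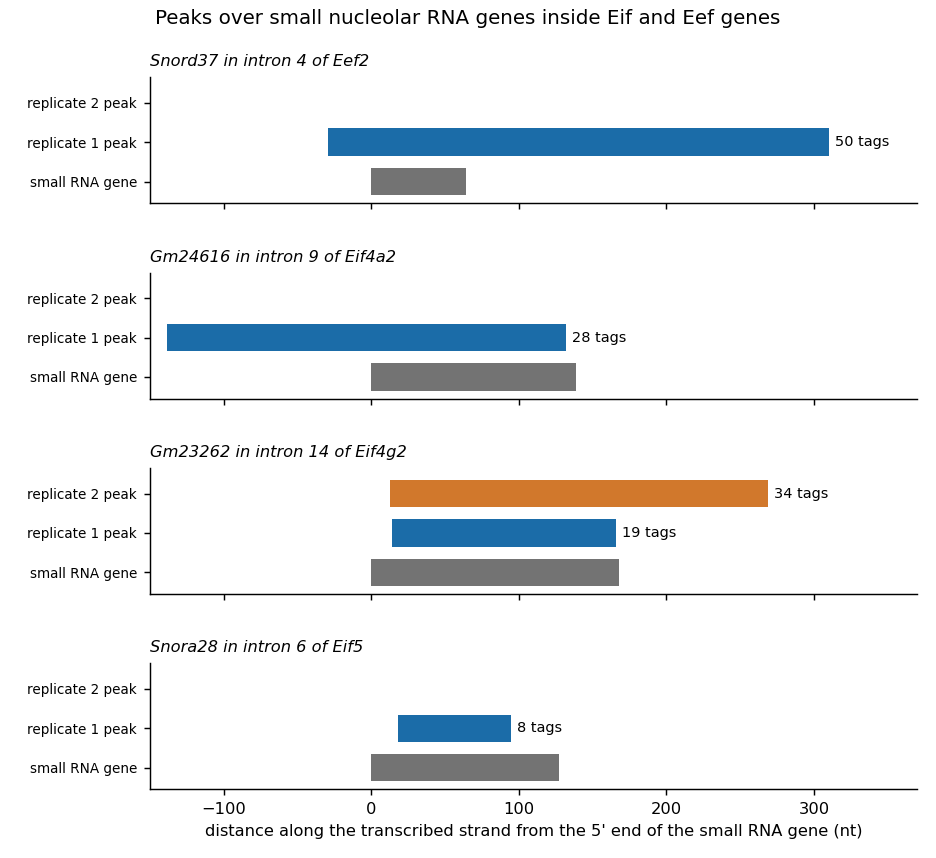
Sense peaks over the 4 snoRNA genes of members, drawn along the transcribed strand from the 5′ end of the snoRNA gene (x axis, nt); grey bars are the snoRNA gene, blue bars replicate 1 peaks and the orange bar a replicate 2 peak, with their tags. The Gm23262 gene is covered in both libraries (19 and 34 tags), and the Snord37 peak (50 tags) reaches well past the gene.

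Coding sequence was the main region of the members' peaks. By the region covering most of each peak, coding sequence held 59.2% of them in replicate 1 (exact binomial 95% interval 49.1 to 68.8) and 62.8% in replicate 2 (53.2 to 71.7), against 47.5% and 45.1% of all sense peaks of protein-coding genes. Introns held 26.2% and 26.5%, with upper bounds of 35.8 and 35.7, against 37.2% and 40.3%. The 3′ UTR held 9.71% and 7.08% and the 5′ UTR 4.85% and 3.54%, against 12.6% and 11.9% and 2.71% and 2.70%, and the members' intervals for these took in the values of all genes. Peaks of a gene share its RNA, so the intervals are too narrow. With only the strongest peak of each member, coding sequence held 48.7% and 36.1% and introns 33.3% and 44.4%, and in replicate 2 introns then held more peaks than coding sequence. Some of these intron peaks had their summit in a coding exon, as those of Eif3b and Eif5 in replicate 2. The same shares over all protein-coding genes are not given here.

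**Figure D4:**
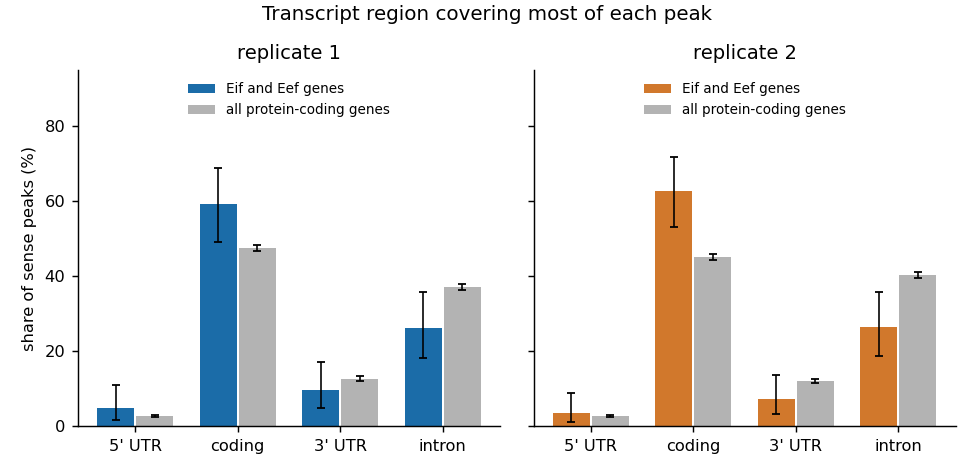
Share of sense peaks (%) by the transcript region that covers most of the peak, for each library; coloured bars are Eif and Eef genes, grey bars all protein-coding genes, and error bars exact binomial 95% intervals. Coding sequence holds 59.2% and 62.8% of the members' peaks, above the grey bars at 47.5% and 45.1%.

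Coding peaks tended to end where exons end. Of the members' coding peaks, 25 of 61 in replicate 1 (41.0%) and 34 of 71 in replicate 2 (47.9%) equalled a whole exon, against 34.0% and 35.6% over all protein-coding genes, and 86.9% and 90.1% had at least 1 end on an exon end, against 80.1% and 80.3%. Where a peak stops at an exon end the spliced mRNA goes on, so the bounds of such a peak are those of the exon. How the caller treated spliced reads is not given in the sources used here. Among all member peaks, coding peaks included, 23.3% of replicate 1 and 33.6% of replicate 2 held both exon and intron bases, against 19.8% and 22.7% over all protein-coding genes.

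On the principal mRNA of each member, 82.9% of the 76 exonic peaks of replicate 1 (72.5 to 90.6) and 87.8% of the 82 of replicate 2 (78.7 to 94.0) had their summit in coding sequence, against 78.3% and 78.4% over all protein-coding genes. The shares in the 3′ UTR were 11.8% (5.56 to 21.3) and 7.32% (2.73 to 15.2), against 18.2% and 17.7%. Summits within 200 nt of the stop codon made up 11.8% (5.56 to 21.3) and 20.7% (12.6 to 31.1), against 11.6% and 11.4%. In replicate 2 the values of all genes lay outside the members' interval for all 3 of these shares, just below it for coding sequence, and in replicate 1 they lay within it. For summits in the 5′ UTR, in the first, middle or last part of the mRNA, or within 200 nt of the start codon, they lay within it in both libraries. The coding and 3′ UTR shares depend on each other. Since peaks of a gene share its RNA, these intervals too are too narrow.

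The m6A motifs were about as common in the members' peaks as elsewhere. On the sense strand GGAC was found in 38 of 76 exonic member peaks in replicate 1 (interval 38.3% to 61.7%) and 36 of 82 in replicate 2 (43.9%, 33.0 to 55.3), against 52.2% and 52.6% of exonic peaks of all protein-coding genes. Per kb it occurred 5.18 and 4.57 times, against 4.99 and 4.87. DRACH was found in 96.1% (88.9 to 99.2) and 97.6% (91.5 to 99.7), against 91.2% and 91.5%, which leaves little room above. In windows of 50 nt on each side of the summit, GGAC was found in 43.4% and 36.6%, against 39.8% and 39.3%, and DRACH in 86.8% and 85.4%, against 86.9% in both. GGAC lies within many DRACH strings, so the motifs overlap. A match is a string of letters and not a methylated site.

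Pairs of overlapping peaks were compared between the lists. The members gave 51 overlapping pairs, made of 49 replicate 1 peaks (47.6% of 103) and 48 replicate 2 peaks (42.5% of 113), against 37.0% and 25.4% of the peaks of all protein-coding genes. The median distance between summits was 22 nt, against 30 nt, and 76.5% of pairs were within 50 nt, against 63.6%. Pairs were chosen by overlap, so peak length limits this distance. Median peak length was 186 nt (replicate 1) and 178 nt (replicate 2) for members, against 196 and 215.5 nt over all protein-coding genes. Whether the distances differ at equal length was not tested. The replicate 2 peak had more tags in 44 pairs, fewer in 6 and as many in 1, and over all protein-coding genes more in 3772, fewer in 944 and as many in 348 of 5064. The median ratio of tags, replicate 2 over replicate 1, was 1.42, beside 1.40 over all protein-coding genes, and its range was 0.333 (Eef1a1 exons 2 and 3) to 4.5 (Eif2s2). The lowest ratio sets a replicate 1 peak of 36 tags against a replicate 2 peak of 12. That replicate 1 peak also met a replicate 2 peak of 51 tags. Over the 51 pairs Spearman's rho of the tags was 0.687 and Pearson's r of log2 tags 0.714, beside 0.746 and 0.779 over the pairs of all protein-coding genes. The pairs share 2 libraries, and the members' pairs few genes. Stronger peaks were found again more often. In replicate 1 this held for 17.4% of member peaks with 3 to 5 tags and for 73.7% of peaks with at least 20, beside 10.8% and 73.5% over all protein-coding genes. In replicate 2 it held for 0 of 10 and for 58.7%, beside 5.05% and 58.2%. The members' shares among peaks with at least 20 tags were thus close to those of all protein-coding genes. Among peaks with 10 to 19 tags they were higher, at 68.8% and 53.6% against 55.3% and 30.7%. With 6 to 9 tags they were 31.0% and 20.7%, against 31.1% and 13.6%.

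**Figure D5:**
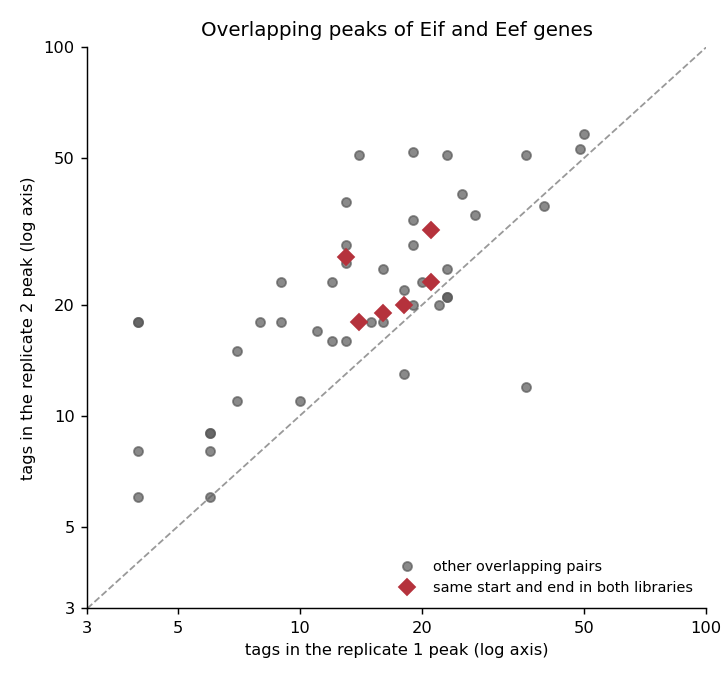
Tags of the 51 overlapping pairs of member peaks in replicate 1 (x) and replicate 2 (y), both on log axes, with the line of equal tags dashed; red diamonds are the 6 pairs with the same start and end. The replicate 2 value is higher in 44 pairs, and the diamonds lie between 13 and 32 tags.

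Genes that work beside the factors were also frequent in the lists. Of 59 such genes found in the annotation, from lists chosen with earlier results known, 30 had a sense peak in both libraries (50.8%) and 17 an overlapping peak. They were 17 of 27 direct partners, among them Pabpc1, the poly(A)-binding protein that circularizes mRNA (146 and 73 tags), Larp1, which binds mRNAs of the translation machinery (162 and 232), Rack1, a ribosomal scaffold (89 and 144), and Ddx3x, a helicase (32 and 95), each with an overlapping peak and named after its values were seen. Of 7 regulators of the integrated stress response, 5 had peaks in both, including Atf4 (24 and 73 tags, no overlap), the transcription factor whose translation rises when eIF2 is phosphorylated. Of 6 kinases of the eIF4F and ribosome axis 4 did, of 9 mitochondrial factors 3, and of 10 enzymes that modify eIF5A or eEF2 or release eIF6 only Dph6. The share over all protein-coding genes was 17.0%, as above.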

How the data were processed

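RNA from IGF2BP2 immunoprecipitates of mouse BMDMs was sequenced in 2 libraries, with 2 inputs that were not analysed here. The build was GRCm38, and the tools included TopHat2 and bcl2fastq, per the submitters' processing notes. Which peak caller was used, with what cut and with which use of the inputs, is not given in the sources used here. For every peak, per the file headers, the authors deposited a raw tag count and a maximum height, a coverage signal, called in each library separately.

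Deposited starts and summits were found to count from 0 (start plus 1 fell on an exon start for 9655 of 33104 sense peaks, the start itself for 69) and were made 1-based. Genes were matched by identifier to GENCODE M21, and the principal transcript was the APPRIS one with the longest coding sequence. Transcripts tagged as incomplete were left out after the files were seen. Overlap means at least 1 base on the same strand. Intervals are exact binomial (95%). Motifs were sought on the sense strand of exonic bases. Sequence copies were sought with 50-mers in the transcripts of other genes. Of the peaks long enough to search, 9 of 80 (replicate 1) and 13 of 97 (replicate 2) had a copy. No test was run, and sequences without molecular identifiers may hold PCR copies.

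The members and gene lists were chosen with earlier results of these data known. All members could be named; every peak is given for members with an overlapping peak and the 10 highest by mean rank of the strongest peak. Symbols not in the annotation (Eif4a3l1, Eif4a3l2, Eef1aknmt, Gcn1 and Trac) were left out. Alternatives covered tag minimum, gene assignment, region, overlap rule, transcript, window and member set. Scripts ran in Python 3.11.15 with numpy 2.4.6, pandas 2.3.3 and scipy 1.17.1 and were tested on simulated data.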

Additional observations from a re-analysis of the deposited data

Results flagged for a closer look

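Antisense peaks of members were not used in any comparison, and there were 9 of them on 8 genes. Those above the lowest listed count of 3 tags were on Eef2kmt (4 tags, replicate 1), Eif2ak2 (4 tags, replicate 2), Eif3a (4 tags, replicate 1), Eif3b (4 tags in each replicate), Eif4g3 (4 tags, replicate 2) and Eif5b (5 tags, replicate 1). They were flagged as signal on the strand opposite to the gene, and their counts are near the lowest listed. The share of antisense peaks over all protein-coding genes is not given here. The Eif3b antisense peaks overlapped each other, at exon 1, and were the only antisense member peaks found in both libraries. Of the 9, 4 lay opposite a sense peak of the same gene: both of Eif3b opposite 8 sense tags in replicate 1, that of Eif2ak2 opposite 6 sense tags in replicate 1, and that of Eif4g3 opposite 18 and 22 sense tags. Whether the library kept strand fully was not tested.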

How the results depend on the processing

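The count of members with a sense peak in both libraries, 29, was 25 with peaks of 5 or more tags, 30 with antisense peaks, 29 with genes assigned by position and 24 with factor subunits only, and fell to 16 with the stronger 50% of each list and to 19 with exonic peaks only, settings that use fewer peaks. With a single library the count was 36 or 39, a different quantity that cannot be below the count in both. The 21 members with an overlapping peak ranged from 15 to 21 over the settings run, which include deposited starts taken as counted from 1, chosen after seeing the data. Apart from the single libraries, shares over all protein-coding genes under these settings are not given here. Whether the excess over 17.0% and 9.07% holds under them is thus not shown. With only the strongest peak of each member, the coding share went to 48.7% and 36.1% and the intron share in replicate 2 to 44.4%. With windows around summits, DRACH went to 86.8% and 85.4%, since windows are shorter than many peaks. Of 42 values under alternatives, 35 stayed within 1.5 times the reported value (counts) or within its 95% interval (shares), and 9 of the 10 highest members stayed among the 10 by height and by summed tags. The 35 include the single-library counts, and such wide bounds are easily met. No paired analysis was possible because the result comes from no test. Counts of 3 to 5 tags, 22.3% and 8.85% of member peaks, were seldom found again, and absence from a list gives no limit on a gene's RNA.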
